A study of Caenorhabditis elegans with 4 samples.

Results

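The regions described here are the LIN-37 peaks of chromosome II in Caenorhabditis elegans late embryos, taken as every peak that the authors' combined peak list places on that chromosome. There are 351 such peaks of 1932 in the whole list, beside 1484 on the autosomes I, III, IV and V together. The list comes from chromatin immunoprecipitation with sequencing (ChIP-seq), in which DNA fragments held by a chosen protein are pulled out of fixed, broken chromatin with an antibody and sequenced, and a peak is an interval where such fragments pile up. The series has 2 LIN37 ChIP libraries and 2 input libraries made from chromatin taken before precipitation. All 4 came from whole late embryos of N2, the standard laboratory strain, labelled wild type and hermaphrodite, at 20 degrees Celsius. Embryos were freed from gravid adults by bleaching and kept for 3.5 hours before freezing. The antibody was a polyclonal one from rabbit, affinity purified and raised against full-length LIN-37. Each ChIP library has a peak list of its own, with 375 peaks on chromosome II in replicate 1 and 336 in replicate 2. Input libraries have no peak list among the files used here, so the peaks stand without a measured background, and no precipitation from animals lacking LIN-37 was used here.

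LIN-37 is a core subunit of the DREAM complex (DRM in worms), in which a retinoblastoma-like pocket protein links a heterodimer of E2F and DP proteins to the MuvB subunits, LIN-37 among them. In C. elegans the complex is known for holding down cell cycle genes and, in somatic tissue, germline genes. The chromosomes of this worm are holocentric, so an arm here is not set off by a point centromere. The outer parts of the autosomes are known for more frequent recombination and more repeats, and the centres for a higher share of conserved and broadly expressed genes. No peak was assigned to a gene, because no annotation or sequence of the build used by the peak lists (WormBase WS210) was used here, and all coordinates below are in that build on chromosome II.

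Replicate support was asked first, as the overlap of a combined-list peak by at least 1 bp with a peak in each replicate list. Of the 351 chromosome II peaks, 292 (83.2%, exact Clopper-Pearson 95% interval 78.9 to 87.0) were supported by both replicates, where the share over all combined-list peaks was 84.2%. Each replicate taken alone was overlapped by more: replicate 1 by 321 peaks (92.2% over all combined-list peaks) and replicate 2 by 315 (89.8% over all). This left 29 peaks found with replicate 1 alone (8.26%), 23 with replicate 2 alone (6.55%) and 7 with no replicate peak (1.99%). The corresponding shares on the other autosomes were 7.61%, 5.26% and 2.29%. The other autosomes had 1259 of 1484 peaks supported (84.8%, 82.9 to 86.6). The odds of support on chromosome II were 0.88 times those on the other autosomes (95% interval 0.64 to 1.23, two-sided Fisher's exact test, with Benjamini-Hochberg adjustment over 9 tests giving p = 0.828), so no difference passed the test and the interval allows a modest one in either direction. The exact tests count each peak as independent, and peaks lie in clusters, so these p-values can be too small. Whether separate cultures were used for the replicates is not stated in the labels, so their overlap may be technical.

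Support followed the authors' score. The files do not state the scale of this score, which was never under 50 and piled up at exactly 3100, so it serves here only to sort peaks within a list. On chromosome II, 14 of the 55 peaks scoring from 50 to under 100 were in both replicates (25.5%, 14.7 to 39.0), as were 76 of the 94 scoring from 100 to under 500 (80.9%, 71.4 to 88.2). All 202 peaks at 500 or more were in both (lower 95% limit 98.2%). On the other autosomes the corresponding shares were 19.6% (14.3 to 25.8), 86.1% (82.6 to 89.1) and 100% (lower limit 99.6%). The intervals of chromosome II and of the other autosomes overlapped in each class, and the combined list is not separate data from the replicate lists.

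**Figure D1:**
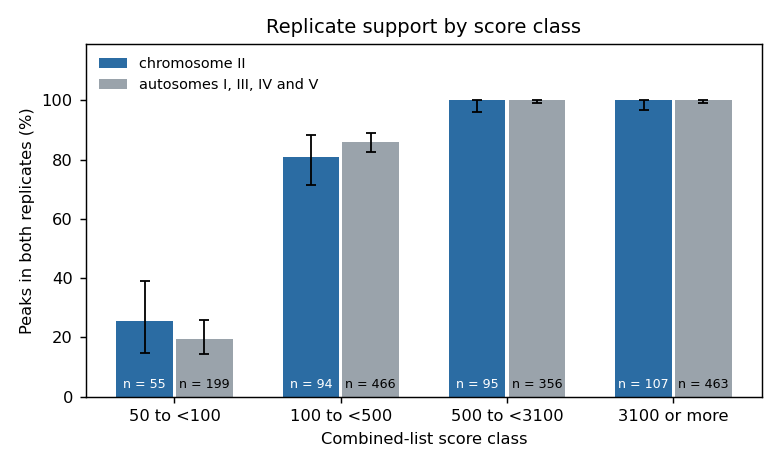
Share of combined-list peaks found in both replicates (%) by class of the deposited score, for chromosome II beside autosomes I, III, IV and V; bars are shares, error bars exact 95% binomial intervals and n the peaks per class. Support was 25.5% on chromosome II and 19.6% on the other autosomes in the lowest class, and 100% in both from a score of 500.

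The 59 peaks without support by both replicates were low in score, with a median of 82.8 against 1436 for the supported ones. The highest of them lay at 14337036 to 14339670 (score 492.22), where replicate 2 had a peak scoring 1135.13 and replicate 1 had none. Next came 4091286 to 4094647 (338.12, replicate 2 only) and 1493869 to 1495829 (302.59), and the second of these overlapped 3 replicate 1 peaks that scored at most 209.32. The last 2 of the first 5 were at 14398363 to 14400735 (287.83) and 12944253 to 12945726 (273.6), both in replicate 2 only. Replicate 1 had a peak at only 1 of these 5 regions.

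The 7 peaks that overlapped neither replicate scored between 52.88 and 185.55. The last 25% of the chromosome held 123 of all 351 peaks and 4 of these 7. The 7 were at 483513 to 485400, 1455961 to 1458324, 5039408 to 5041494, 12224540 to 12226296, 14274688 to 14276080, 14410414 to 14411961 and 14796778 to 14798697. The 5 supported peaks with the lowest scores reached no higher, from 53.42 at 5417576 to 5418606, through 63.31 (13824360 to 13826161), 76.5 (14345772 to 14346878) and 78.22 (4959299 to 4960377), up to 79.22 at 4705952 to 4709549. Low scores therefore held both repeated and unrepeated regions. The first bases of the chromosome, in a peak ending at 1218 whose start the files leave blank and which was read as starting at 1, scored 121.93 in the combined list, scored 306.32 in replicate 2 and had no replicate 1 peak.

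Seen from the replicate lists, 312 of the 375 replicate 1 peaks on chromosome II overlapped a replicate 2 peak (83.2%, 79.0 to 86.8; 80.1% over all chromosomes). Of the 336 replicate 2 peaks, 299 overlapped a replicate 1 peak (89.0%, 85.1 to 92.1; 89.5% over all chromosomes). The combined list left out 34 of these 375 replicate 1 peaks and 15 of these 336 replicate 2 peaks, with highest scores of 192.18 and 258.43. On the other autosomes it left out 213 of 1668 replicate 1 peaks and 65 of 1422 replicate 2 peaks. Of those left out there, 12 and 11 overlapped a peak of the other replicate. At 2 places on chromosome II both replicates had a peak and the combined list had none. One was at 5358095 to 5358647 (score 57.51 in replicate 1 and 52.13 in replicate 2) and the other at 13016245 to 13016818 (55.32 in replicate 1 and 53.73 in replicate 2), with coordinates from replicate 1.

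Position along the chromosome was described in 3 segments, the left arm (first 25% of the length, to 3813903), the centre (to 11441711) and the right arm (to 15255615), with the length taken as the highest peak end in the 3 lists. The right arm was the most densely bound. It held 103 supported peaks, or 27.0 per Mb, beside 15.7 per Mb in the left arm (60 peaks) and 16.9 per Mb in the centre (129 peaks). The left arm held 36.8% of the peaks of the arms (29.4 to 44.7), under the 50% that equal lengths give (two-sided exact binomial test, adjusted p = 0.0085). On the other autosomes, supported peaks in the left and right arm numbered 103 and 89 on I, 55 and 115 on III, 103 and 60 on IV, and 59 and 40 on V, and whether chromosome II differs from them in this was not tested. The replicate lists of chromosome II, each taken whole, had fewer peaks in the left arm too: 82 in the left arm and 131 in the right arm in replicate 1, and 76 and 115 in replicate 2, where the adjusted exact binomial p was 0.0524.

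The most crowded 10% of the length was the last. That stretch, from 13730054 on, held 52 supported peaks (34.1 per Mb), the first 10% held 30 (19.7 per Mb), and the sparsest, from 20% to 30% of the length, held 12 (7.87 per Mb). The other 10% bins ranged from 19 to 39 peaks. With both outermost 10% bins left out, the left arm still held 37.0% of the arm peaks, and the exact binomial test no longer passed (adjusted p = 0.167).

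**Figure D2:**
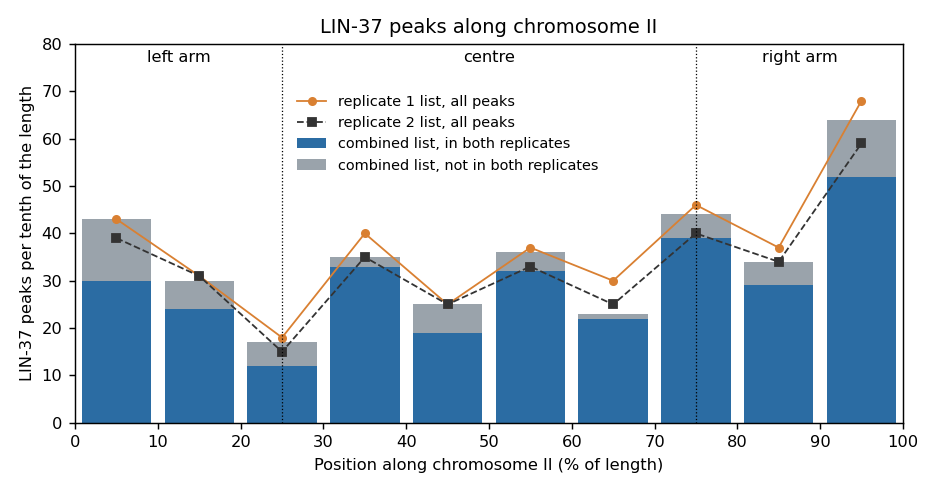
Peaks per 10% of chromosome II length, from its left end to its right end: stacked bars give combined-list peaks in both replicates and not in both, lines the whole lists of replicates 1 and 2, and dotted lines the limits of the arms. All 3 lists are lowest between 20% and 30% of the length and highest in the last 10%, with 64 combined-list, 68 replicate 1 and 59 replicate 2 peaks.

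The centre held 44.2% of the supported peaks (38.4 to 50.1), and its difference from 50% did not pass the exact binomial test (adjusted p = 0.167). Taking all 351 combined-list peaks, the share was 42.2% (148 peaks) and passed the same test (adjusted exact binomial p = 0.0175). Chromosome II as a whole was bound about as densely as the other autosomes together, at 19.1 against 18.8 supported peaks per Mb, a ratio of 1.02 (95% interval 0.90 to 1.16, exact binomial test, adjusted p = 0.906). The pooled value covers a wide spread, with 24.2 per Mb on I, 25.6 on III, 16.95 on IV and 11.8 on V, so chromosome II lay between I and IV. Peaks of the combined list covered 4.40% of chromosome II and 4.18% of the other autosomes.

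Support and score along the chromosome had wide errors, and no difference between segments passed the test. Support was 75.0% in the left arm (60 of 80 peaks, 64.1 to 84.0), 87.2% in the centre (129 of 148, 80.7 to 92.1) and 83.7% in the right arm (103 of 123, 76.0 to 89.8). The centre against both arms gave an odds ratio of 1.67 (0.89 to 3.20, Fisher's exact test, adjusted p = 0.251). The left arm against the rest of the chromosome (75.0% against 85.6%) gave 0.50 (0.26 to 0.98), in a Fisher's exact test chosen after the values were seen (adjusted p = 0.056 over 5 such tests). Among peaks scoring under 500, an alternative chosen after the data were seen, support was 62.7% in the centre (32 of 51) and 59.2% in the arms (58 of 98), and the odds ratio was 1.16 (Fisher's exact test, adjusted p = 0.906). In the centre 97 of 129 supported peaks scored at least 500 (75.2%, 66.8 to 82.4), as did 105 of 163 in the arms (64.4%, 56.6 to 71.7), with 65.5% over all supported peaks of the series. That odds ratio of 1.67 (0.97 to 2.90) did not pass Fisher's exact test (adjusted p = 0.167). By 10% bins, the median score of supported peaks was highest at the left end (2803) and lowest between 80% and 90% of the length (723), so the crowded right arm was not the part with the highest scores.

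Widths were compared next. Supported peaks of chromosome II had a median width of 1691 bp (interquartile range 1257 to 2300), from 897 to 5755 bp, and those of the other autosomes had a median of 1711 bp. More than 2000 bp was spanned by 103 of 292 peaks (35.3%, 29.8 to 41.1) on chromosome II and by 432 of 1259 (34.3%, 31.7 to 37.0) on the other autosomes, beside 33.6% over all supported peaks. The odds ratio was 1.04 (0.79 to 1.37, Fisher's exact test, adjusted p = 0.906). Wider peaks had higher scores: 38 of the 188 peaks from just over 1000 up to 2000 bp scored 3100 or more, as did 41 of 68 up to 3000 bp, 17 of 22 up to 4000 bp and 11 of 13 beyond. Across the 292 peaks, Spearman's rho of width with score was 0.58, and 0.34 over the 185 under 3100, as a description, since peaks share their libraries.

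Between centre and arms no difference in the share of wide peaks passed the test (34.1% against 36.2%, odds ratio 0.91, 0.55 to 1.52, Fisher's exact test, adjusted p = 0.906), while one between the 2 arms did. In the left arm 13 of 60 supported peaks were wider than 2000 bp (21.7%, 12.1 to 34.2), against 46 of 103 in the right arm (44.7%, 34.9 to 54.8). The odds ratio was 0.34 (0.15 to 0.74, Fisher's exact test, adjusted over the same 5 tests, p = 0.0197). Among peaks scoring 3100 or more, 8 of 21 in the left arm, 33 of 55 in the centre and 28 of 31 in the right arm were this wide. At scores from 500 to under 3100 these were 4 of 19, 9 of 42 and 13 of 34. At 3100 or more, wide peaks thus made up 38.1% of the left and 90.3% of the right arm. The same shares were 54.5% and 53.3% on I, 68.4% and 71.0% on III, 58.3% and 66.7% on IV, and 75% and 50% on V. Whether chromosome II differs from them at these scores was not tested. The odds ratio between the arms of chromosome II was 0.44 with an overlap of 50% of both lengths required for support. There it did not pass even unadjusted (Fisher's exact p = 0.0864). Under that limit 45 of 203 supported peaks of chromosome II were wide, against 103 of 292 without it, so fewer wide peaks were left to compare. The odds ratio was 0.11 without the outermost 10% bins of the chromosome.

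The replicates' own lists gave the same direction without passing the test. In replicate 2, 10 of 76 left arm peaks and 30 of 115 right arm peaks were wider than 2000 bp (odds ratio 0.43, 0.17 to 0.99, Fisher's exact test, adjusted p = 0.056), where 22.3% of all replicate 2 peaks were. In the narrower replicate 1 list, 26 of 82 left arm peaks and 49 of 131 right arm peaks exceeded 1000 bp (odds ratio 0.78, 0.41 to 1.45, adjusted Fisher's exact p = 0.462), where 35.7% of all replicate 1 peaks did. The width difference between the arms thus passed the test in the combined list and not in either replicate. On the other autosomes, wide peaks made up 33.0% and 24.7% of the left and right arm on I, 30.9% and 40.0% on III, 33.0% and 41.7% on IV, and 40.7% and 30.0% on V, and whether chromosome II differs from them was not tested.

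**Figure D3:**
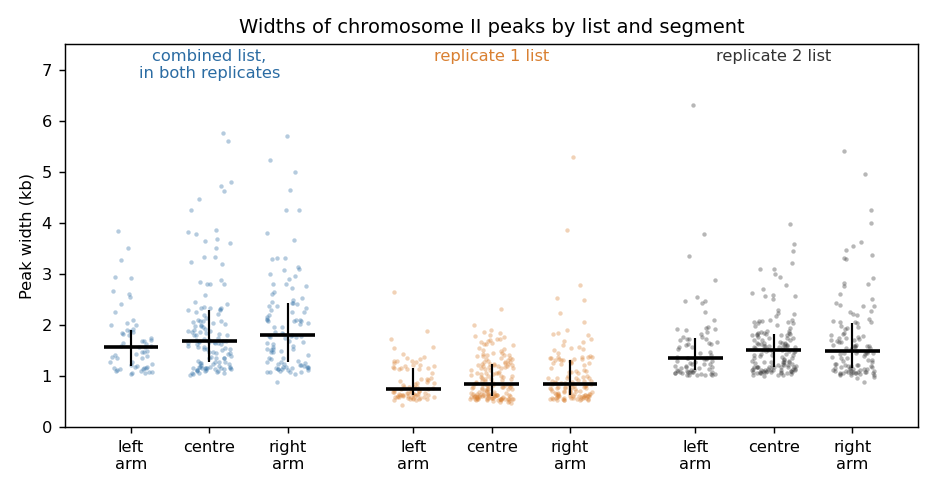
Peak widths (kb) on chromosome II by list and segment; each point is a peak, thick bars are medians and thin lines interquartile ranges. Medians run from 1573 bp in the left arm to 1802 bp in the right arm among supported combined-list peaks, and replicate 1 peaks are narrower than replicate 2 peaks in every segment.

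The widest supported regions of each segment were named by rule. In the centre they were 4697063 to 4702817 (5755 bp), 4998035 to 5003635 (5601 bp), 10560719 to 10565524 (4806 bp), 10575947 to 10580664 (4718 bp) and 5387820 to 5392442 (4623 bp). All 5 scored 3100 in the combined list, and their highest replicate peaks scored 3100 in both replicates. Those beginning at 10560719 and 10575947 are neighbours, 10422 bp apart edge to edge. In the right arm the widest were 11756450 to 11762140 (5691 bp), 13819100 to 13824328 (5229 bp), 12675592 to 12680589 (4998 bp), 11871927 to 11876568 (4642 bp) and 14404354 to 14408604 (4251 bp). The second and the last of these stood apart by their scores, of 1104.13 and 2892.96, since the other 3 scored 3100 in each list. In the left arm none passed 4000 bp: the widest were 1128471 to 1132307 (3837 bp), 384489 to 388004 (3516 bp), 1132454 to 1135722 (3269 bp), 215751 to 218699 (2949 bp) and 22755 to 25686 (2932 bp), each scoring 3100 in the combined list.

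Width alone did not mark a repeated region. The widest chromosome II interval of all, at 693511 to 699849 (6339 bp), scored 81.02 and was found in replicate 2 only, there as a peak of 6301 bp scoring 245.14. It was chosen after its value was seen. By contrast the region at 11756450 to 11762140 was a single wide peak in both replicates, of 5292 bp in replicate 1 and 5412 bp in replicate 2.

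Replicates drew the same sites with different edges. Between the lists, 299 pairs of chromosome II peaks were each other's best overlap, with a median distance of 48.0 bp between their centres. The replicate 2 peak was the wider in 290 pairs (97.0%), by a median factor of 1.54 (interquartile range 1.30 to 1.84), and the partner enclosed the whole replicate 1 peak in 271 (90.6%). On the other autosomes the median distance was 52.5 bp and the median factor 1.57, close to these. The combined-list peak was in turn a median of 1.73 times as wide as the replicate 1 peak and 1.06 times as wide as the replicate 2 peak, over the 273 peaks with exactly 1 partner in each list. It contained both partners in 245 of these cases and had exactly their joint outer limits in 1, so the combined intervals differ from the union of the replicate peaks.

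A few combined peaks overlapped several replicate peaks. Of the 351 chromosome II peaks, 19 overlapped 2 or more replicate 1 peaks by at least 1 bp. For replicate 2 this number was 6. These counts are given for chromosome II only, so they do not show whether it is unusual in this. The peak at 13819100 to 13824328 covered 3 in replicate 1, scoring 114.56, 178.8 and 89.47, and 2 in replicate 2. That at 11344756 to 11349215 joined 2 replicate 1 peaks that each scored 3100, and those at 4697063 and 5387820 each joined one replicate 1 peak at 3100 to a lower one (1521.65 and 213.22).

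Across the 299 pairs the scores of the replicates had a Spearman's rho of 0.92, which was 0.78 over the 205 pairs with both scores under 3100. The other autosomes gave 0.93 and 0.85. These describe peaks that share 2 libraries and are not tests. In 79 pairs both scores were exactly 3100. Scores were then ranked within each whole replicate list, since the lists need not share a scale. On chromosome II 9 of 299 pairs (3.01%) ranked in the lowest 25% of one list and the upper 50% of the other, as did 9 of 1285 (0.700%) on the other autosomes, limits set after the values were seen and without a test. In 6 of the 9 replicate 2 ranked low. The left arm held 61 of all 299 pairs and 5 of these 6. The widest apart of these, near 1976336, stood at percentile 3.07 of the replicate 2 list and 56.3 of the replicate 1 list. In the other 3 replicate 1 ranked low: near 5661514 the percentile was 63.2 in replicate 2 and 18.7 in replicate 1, near 5844566 it was 51.7 and 5.86, and near 13030391 it was 56.7 and 15.8, in the same order. The centres of the 9 pairs lay at most 248 bp apart.

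**Figure D4:**
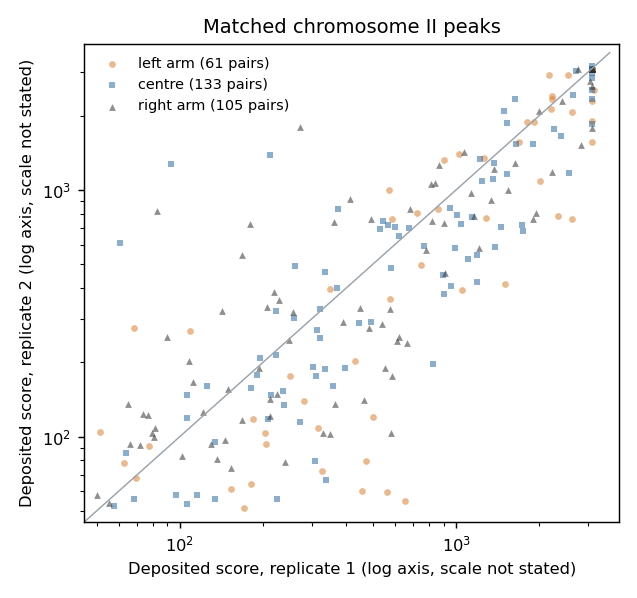
Deposited scores of the 299 matched chromosome II peak pairs, replicate 1 on the horizontal and replicate 2 on the vertical log axis, marked by segment; the line marks equal values, although the lists need not share a scale. Points crowd at 3100 in both replicates (79 pairs).

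On chromosome II 3 of the 351 peaks scored above 3100 in the combined list, beside 12 of 1484 on the other autosomes. The left arm held 80 of the 351 peaks and all of these 3. They were at 591234 to 592520 (3145.25), 592734 to 594088 (3182.65) and 2503816 to 2505388 (3226.07), and were 1287, 1355 and 1573 bp wide, all narrower than the median supported peak. Their replicate scores ran from 2120.69 to 2393.64. Of the 104 chromosome II peaks at exactly 3100 in the combined list, 11 also had both replicate scores under 3100, so this does not set the 3 peaks apart. The first and the second are neighbours, 213 bp apart.

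Spacing was measured edge to edge between neighbouring supported peaks. The 291 gaps on chromosome II had a median of 29.5 kb (interquartile range 9.98 to 65.1 kb), beside 28.5 kb on the other autosomes. Gaps under 5 kb numbered 51 (17.5%, 13.3 to 22.4) on chromosome II and 218 of 1255 (17.4%, 15.3 to 19.6) on the other autosomes, with 16.7% over all chromosomes. The odds ratio was 1.01 (0.71 to 1.43, Fisher's exact test, adjusted p = 0.932). Gaps in the right arm were shorter, with a median of 19.4 kb, against 38.3 kb in the left arm and 37.7 kb in the centre.

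**Figure D5:**
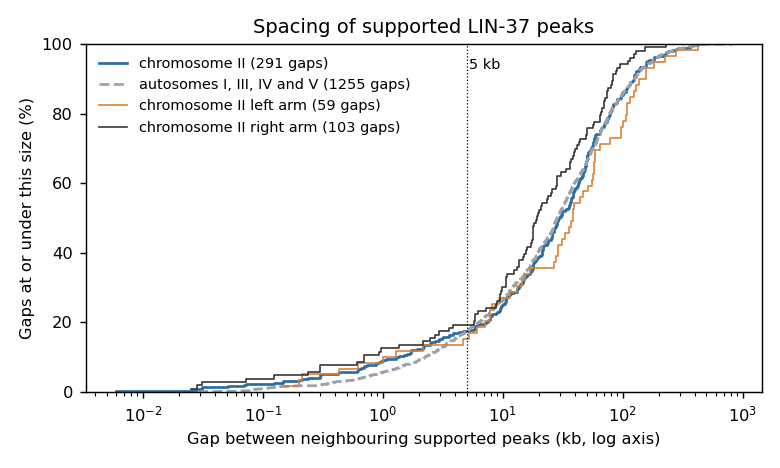
Cumulative share (%) of gaps between neighbouring supported peaks by size (kb, log axis), for chromosome II, for autosomes I, III, IV and V together, and for the left and right arm of chromosome II. The curves of chromosome II and the other autosomes run together above 5 kb (medians 29.5 and 28.5 kb), and the right arm reaches 50% at a shorter gap (19.4 kb) than the left arm (38.3 kb).

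Gaps under 500 bp made up 17 of 291 (5.84%, 3.44 to 9.19) on chromosome II and 40 of 1255 (3.19%, 2.29 to 4.32) on the other autosomes, with 3.58% over all chromosomes. Chromosome IV alone had 15 of 295 (5.08%), close to chromosome II. The odds ratio of 1.88 (0.99 to 3.46) did not pass after adjustment (Fisher's exact test, adjusted p = 0.056 within those same 5 post hoc tests). The closest neighbours, at 9053871 to 9055385 and 9055392 to 9058244, were 6 bp apart and scored 3100 and 815.93. Including unsupported peaks, 24 neighbouring pairs lay under 500 bp apart, and both members were supported in 17. A single replicate 1 peak overlapped both members in 1 of the 24, at 12280665 to 12281762 and 12281787 to 12282909. That peak ended at 12281788, just inside the second member, and the first member had no replicate 2 peak. In the 17 supported pairs no single peak of either replicate overlapped both members.

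Close neighbours formed short runs. Joined at gaps under 5 kb, the 292 supported peaks made 199 single peaks, 36 pairs, 4 runs of 3, 1 run of 4 and 1 run of 5. The run of 5 spanned 15273 bp in the left arm, from 1120450 to 1135722. Its peaks, each in both replicates by the choice of supported peaks, scored 529.66, 1098.77, 326.97, 3100 and 3100 in order along the chromosome. In replicate 1 the highest of them scored 3159.4 and in replicate 2 it scored 2533.03.

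The run of 4 lay in the fullest 100 kb window, from 13800001 to 13900000 in the right arm, which held 9 supported peaks where the 153 windows averaged 1.91 ± 1.49 (SD across windows) and 24 were empty. Its members, at 13817227 to 13819074, 13819100 to 13824328, 13824360 to 13826161 and 13826235 to 13829550, were only 25, 31 and 73 bp apart, so that they cover 12324 bp nearly without a break. They scored 313.53, 1104.13, 63.31 and 121.24, and no replicate peak among them passed 724. Of the other 5 peaks of the window, at 13847037 to 13847933, 13858855 to 13859992, 13874863 to 13875950, 13885527 to 13886816 and 13887116 to 13889192, the last scored 1691.84 and the others between 94.1 and 221.15. The 9 supported peaks of this most crowded window were each wider than 2000 bp or scored under 500. None of the 9 reached 3100, where 107 of all 292 supported peaks of chromosome II did. The 9 peaks were picked for support by both replicates, and with unsupported peaks counted the window held 10.

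The longest gaps between supported peaks lay in the left arm and the centre. The 5 longest gaps ran from 3077672 to 3500977 (423.3 kb), 4174906 to 4554028 (379.1 kb), 9320323 to 9686552 (366.2 kb), 8603012 to 8890595 (287.6 kb) and 2638867 to 2918647 (279.8 kb), each given by the edges of the supported peaks that bound it. The gap beginning at 4174906 held 2 combined-list peaks not found in both replicates, and the one beginning at 2638867 held 1. Over 100 kb were 14 of 59 gaps in the left arm, 23 of 129 in the centre and 6 of 103 in the right. The other autosomes had 178 of 1255. Read depth is unknown for each library, so a region without a peak had none called here and is not shown to be unbound.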

How the data were processed

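LIN-37 ChIP-seq was analysed from 3 deposited peak lists, 1 per ChIP library and 1 combined. The build is WormBase WS210, per the file headers, to which coordinates were carried over from another build. Per the file headers and feature names, each deposited score belongs to a peak named for MACS, while the source column names MA2C. Not given in the sources used here are the caller's version, the aligner, the control, filters, the score's scale and whether reads were pooled for the combined list. Per the labels' protocols, PCR ran for 18 cycles and gels kept fragments of 250 to 350 bp.

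Peaks were read as 1-based intervals, assigned to a segment by their centre. Overlap meant at least 1 bp, and support meant overlap with a peak of each replicate. Shares were tested with Fisher's exact test and positions with exact binomial tests, all two-sided, with Benjamini-Hochberg adjustment over 9 tests (SciPy 1.17.1, statsmodels 0.14.6, Python 3.11.15), which were tested on simulated data. Intervals are exact Clopper-Pearson (conditional exact for odds ratios) at 95% and cover counting error only, since read depth is unknown. Regions, lists and tests were chosen with earlier results of these data known. Named regions were the 5 widest supported peaks per segment, peaks in neither replicate, peaks above 3100, the fullest 100 kb window, the 5 longest gaps, the 5 extreme scores around support, the up to 5 peaks spanning most replicate 1 peaks, and the peak without a start. Alternatives were another overlap limit, support asked of 1 replicate whatever the other had, and other peak sets. Other limits of width, score, gap and centre, and merged neighbours, were also used.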

Additional observations from a re-analysis of the deposited data

How the results depend on the processing

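No paired analysis was possible because the input libraries, which carry the same replicate numbers as the ChIP libraries, have no list to compare here. Of 75 alternatives (60 planned, 15 added after seeing the data), 57 kept direction and side of the threshold; the cause of the other changes was not tested. The share of the left arm among arm peaks (36.8%) did not pass with 50% of both lengths shared (40.5%). Nor did it in the upper 50% by score (39.4%), the replicate 2 list (39.8%) or without the outermost 10% bins (37.0%). It passed with support asked of 1 replicate, whatever the other had (37.9% to 38.8%), and with peaks under 2 kb apart merged (37.3%). The central share (44.2%) passed with all combined-list peaks (42.2%) and in the replicate 1 list (43.2%). It was 43.3% to 43.5% with support asked of 1 replicate. It came nearest to 50% in the upper 50% by score (48.9%, exact binomial test, adjusted p = 0.928). The adjusted exact binomial p ranged from 0.0175 to 0.928 over all alternatives. Differences near 1 changed side without passing: the density ratio (1.02) was 0.99 in each of 3 cases (0.987 with 50% of both lengths shared, 0.989 in the replicate 1 list, 0.986 with neighbours merged). The odds ratio of wide peaks, chromosome II over the other autosomes (1.04), was 0.86 with 50% of both lengths shared and 0.96 in the upper 50% by score. That of wide peaks, centre over arms (0.91), was 1.39 beyond 3000 bp and 0.95 to 1.03 with support asked of 1 replicate. That of short gaps (1.01) was 0.76 with 50% of both lengths shared and 0.94 for gaps under 10 kb. With support asked of 1 replicate it was 0.96 to 1.02. The odds ratio of wide peaks, left over right arm, was 0.34. It did not pass an unadjusted Fisher's exact test with 50% of both lengths shared (0.44), which left fewer wide peaks, or beyond 3000 bp (0.33). It was 0.11 without the outermost 10% bins and 0.34 to 0.35 with support asked of 1 replicate. Support and the score of 500 could not be tested in the upper 50% by score, where all peaks had both. How many peaks depth kept from view is unknown, as the lists give no read numbers.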
